A study of Homo sapiens with 59 samples.

Results

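The genes described here encode enzymes and membrane proteins of the lysosome. The set lists 46 genes, and its members are all probes that the array platform annotates to them and whose detection p was under 0.01 on 5 or more arrays. ACP5 had no named probe. The other 45 genes had 66 probes, of which 63 were kept, out of 15336 kept probes in the whole series. A single kept probe stood for 32 genes, while 8 genes had 2 and 5 genes had 3. Where a gene had several probes, its brightest one represents it unless another is named.

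The cells were THP-1, a line from a human monocytic leukaemia, and their transcripts were read on Illumina BeadChips. All cells had been differentiated into macrophage-like cells with the phorbol ester PMA at 10 ng/ml for 40 h and then kept for 2 h without it. They received 1 µM rosiglitazone (RSG), an antidiabetic drug that binds and activates the nuclear receptor PPARG, or its vehicle DMSO for 0.5, 1.5, 3, 8 or 12 h. Each of the 10 groups held 6 arrays, except RSG at 1.5 h with 5. No genetic change separates the groups, and all arrays come from 1 cell line. Nothing in the labels says that replicates came from separate cultures, so the p-values below measure only the spread between these samples.

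Lysosomes are acidic organelles in which hydrolases break down proteins, glycans, sulfated sugars and lipids delivered by endocytosis, phagocytosis and autophagy. A proton pump in the membrane, the V-ATPase, keeps the lumen acidic, and heavily glycosylated membrane proteins shield the membrane from its own enzymes. Many of these genes carry a short E-box element that is bound by TFEB, a transcription factor of the MiT family, and macrophages are cells with an especially rich lysosomal compartment.

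Promoter sequence was used to look for this E-box near the starts of the lysosomal genes. RefSeq windows (build GRCh38.p14, from 250 bases before to 50 bases after a start) were found for 32 of the 46 genes, which had 48 windows. The E-box CACGTG, whose letters read the same on both strands, occurred in 10 of 48 member windows (20.8%) and in 7.26% of all 35116 windows. Its longer form TCACGTGA, which contains the shorter one and also reads the same on both strands, occurred in 5 member windows and 0.98% of all windows. The perfect direct repeat of AGGTCA with 1 base between the copies (DR1), of the kind bound by PPARG with RXR, was searched on both strands and matched 0 member windows and 8 of all windows. The genes with CACGTG were ARSB, NEU1, CTSD, CD63, LAMP1, ATP6V0D1, GAA, MCOLN1, CTSA and ACP5. Below are the 250 bases before the start of IDS, the member that differed between RSG and DMSO cells, of NEU1 and GAA, glycosidases with the E-box, and of CTSL and CTSC, cathepsins without it, each written 5′ to 3′ on the strand of its gene with CACGTG in capitals. They lie at chrX:149505307-149505556 (minus strand, IDS), chr6:31862822-31863071 (minus strand, NEU1), chr17:80101331-80101580 (plus strand, GAA), chr9:87725869-87726118 (plus strand, CTSL) and chr11:88337737-88337986 (minus strand, CTSC).
IDS: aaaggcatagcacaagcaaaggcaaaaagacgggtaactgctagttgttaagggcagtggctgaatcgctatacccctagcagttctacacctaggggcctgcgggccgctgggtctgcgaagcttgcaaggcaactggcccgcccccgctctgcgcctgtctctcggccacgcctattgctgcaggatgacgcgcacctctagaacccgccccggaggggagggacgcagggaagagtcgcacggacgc
NEU1: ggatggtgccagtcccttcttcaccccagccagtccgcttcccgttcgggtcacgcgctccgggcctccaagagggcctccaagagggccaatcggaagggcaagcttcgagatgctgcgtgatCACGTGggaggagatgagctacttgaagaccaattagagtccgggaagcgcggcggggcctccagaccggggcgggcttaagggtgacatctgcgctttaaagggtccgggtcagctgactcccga
GAA: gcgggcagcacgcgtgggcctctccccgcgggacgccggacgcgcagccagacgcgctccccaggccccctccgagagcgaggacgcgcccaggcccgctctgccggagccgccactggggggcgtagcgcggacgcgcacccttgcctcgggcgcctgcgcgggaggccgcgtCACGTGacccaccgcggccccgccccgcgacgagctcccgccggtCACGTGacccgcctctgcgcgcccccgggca
CTSL: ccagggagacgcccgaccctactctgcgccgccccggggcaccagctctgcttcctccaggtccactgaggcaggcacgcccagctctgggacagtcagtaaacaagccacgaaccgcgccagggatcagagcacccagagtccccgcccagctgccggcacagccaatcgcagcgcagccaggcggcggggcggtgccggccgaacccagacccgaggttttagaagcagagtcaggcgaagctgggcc
CTSC: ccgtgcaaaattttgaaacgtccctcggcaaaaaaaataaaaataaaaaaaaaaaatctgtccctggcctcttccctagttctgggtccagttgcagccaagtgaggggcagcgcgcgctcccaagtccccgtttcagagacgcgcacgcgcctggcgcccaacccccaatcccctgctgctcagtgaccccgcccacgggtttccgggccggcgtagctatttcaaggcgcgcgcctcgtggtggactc
The E-box of NEU1 begins 126 bases before the start, and those of GAA begin 76 and 31 bases before it. IDS had no CACGTG in these 250 bases. A match describes these letters only and is not evidence of binding.

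The arrays had a mean raw signal of 318 to 1396 and 12182 to 13937 detected probes. On 5 of them (RSG 8 h replicate 1, replicates 2 and 5 of RSG 12 h, replicates 4 and 6 of DMSO 12 h) the median correlation with the other arrays was 0.895 to 0.931, against 0.959 to 0.986 on the other 54. The mean log2 intensity of a list of inflammatory and dendritic maturation genes was 11.2 to 12.7 on these 5 arrays and 6.42 to 7.30 on the other 54. LAMP3 stood at 13.4 to 14.0 on the 5 arrays and 4.27 to 4.88 on the others, and CXCL10 at 10.9 to 13.8 against 4.50 to 5.48. Macrophage markers averaged 10.1 to 10.3 on the 5 arrays and 11.1 to 11.6 on the others, with 9 of 11 of them kept. Comparisons were therefore fitted with all 59 arrays and with the 54. Calls and changes of lysosomal genes over time are from the 54 where no set is named. PDK4, a PPARG target that checks the treatment, averaged 9.17 in RSG cells and 5.64 in DMSO cells at 12 h in the 54 arrays, and 4 of 5 such target genes were higher in RSG cells. It went against the label on DMSO 3 h replicates 1 and 4 (6.88 and 8.21), RSG 3 h replicate 2 (4.95) and RSG 0.5 h replicate 6 (7.50). Without these 4 arrays as well, every count of lysosomal probes called in a comparison of 12 h with 0.5 h or of RSG with DMSO differed by at most 1.

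The lysosomal genes were well measured in every group. The brightest probe of 44 of 45 genes was detected on all 59 arrays, as it was for 7830 of the 11515 named genes of the series. The exception, ATP6V0D2, encodes a pump subunit and was detected on 56 arrays. Among the brightest probes the mean log2 intensity ran from 6.01 for CTSK, a collagen-degrading cathepsin, to 14.85 for NPC2, which hands cholesterol to NPC1. Probes differ in brightness for the same amount of RNA, so levels were compared within a probe only. The median SD within groups was 0.22 for the lysosomal genes and 0.22 for all named genes in the 54 arrays.

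**Figure D1:**
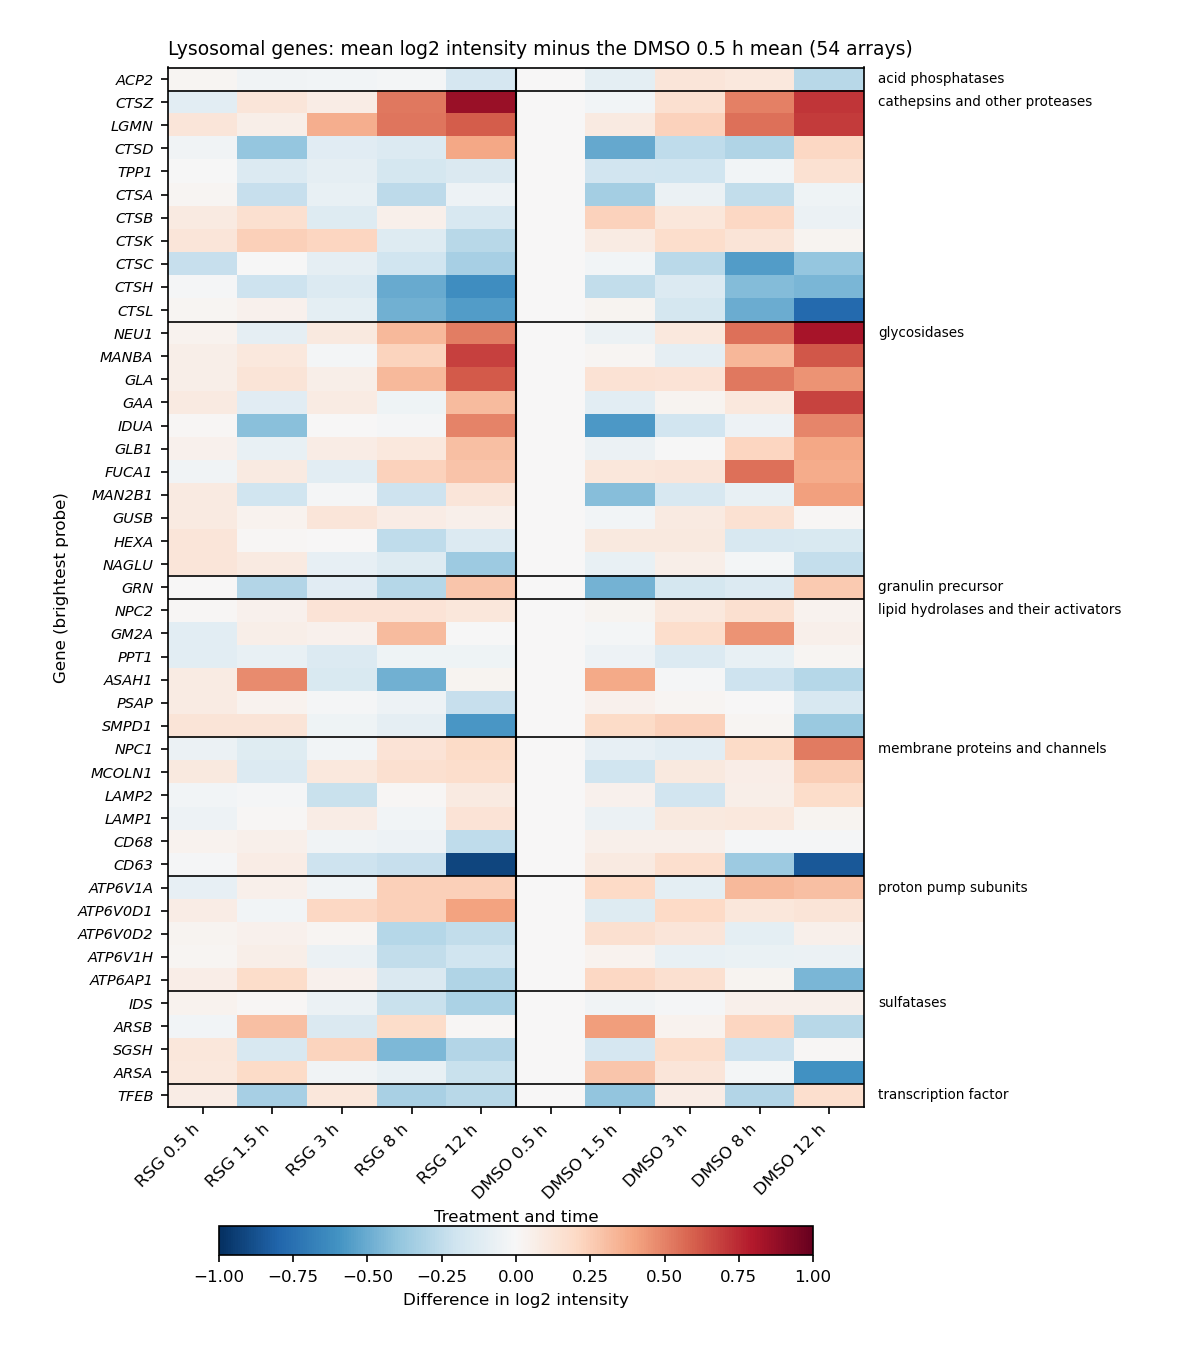
Mean log2 intensity of each of 45 lysosomal genes (rows) in the 10 groups (columns, RSG groups left of DMSO groups, times from 0.5 to 12 h), drawn as the difference from the gene's mean in DMSO cells at 0.5 h, with 54 arrays. Colour separates the times within each treatment more than the treatments, with CTSL and CD63 below and NEU1, CTSZ and MANBA above their 0.5 h level at 12 h on both sides.

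The first comparison asked whether the PPARG ligand changes transcripts of lysosomal proteins. With all 59 arrays, 0 of 63 lysosomal probes were called at any time (limma, Benjamini-Hochberg adjusted p under 0.05), and of all probes 0%, 0%, 0%, 0.0782% and 0.0196% were called at 0.5, 1.5, 3, 8 and 12 h. In the mean over all times 0 of 63 were called, and 0.254% of all probes. Unadjusted p under 0.05 was reached by 0, 0, 0, 3 and 1 of the 63 probes at these times. With the 54 arrays, 0 of 63 probes were called at 0.5, 1.5 and 3 h, and 1 at 8 h, 1 at 12 h and 1 in the mean over all times. The shares called among all probes in the 54 arrays were 0%, 0.013%, 0%, 0.893% and 1.53% at the 5 times and 2.09% over all times. Lower in RSG cells were 0.274% at 8 h, 0.541% at 12 h and 0.659% over all times. The 1 probe was in each case the brightest one of IDS, which encodes iduronate 2-sulfatase, an enzyme that removes sulfate from heparan and dermatan sulfate.

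In the 54 arrays IDS was lower in RSG cells at 8 and 12 h. At 8 h its log2 intensity was 10.31, 10.29, 10.24, 10.32 and 10.26 in RSG cells, with 10.00 on replicate 1, the array apart, and 10.52, 10.56, 10.53, 10.50, 10.58 and 10.62 in DMSO cells. Every RSG array lay below every DMSO array. The means of the 54-array fit were 10.28 ± 0.03 in RSG cells (SD, n = 5) and 10.55 ± 0.04 in DMSO cells (SD, n = 6), a log2 difference of -0.27 (SE 0.06, 95% interval -0.39 to -0.15, adjusted p = 0.00988 by limma), or 1.20-fold lower in RSG cells.

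At 12 h, IDS stood at 10.14, 10.15, 10.17 and 10.27 in RSG cells and at 10.58, 10.61, 10.49 and 10.55 in DMSO cells, again with no overlap. On the arrays apart it was lower in both treatments, at 9.80 and 9.99 in RSG cells and 9.62 and 9.66 in DMSO cells. Without those arrays the log2 difference was -0.37 (SE 0.07, 95% interval -0.52 to -0.23, adjusted p = 0.000954 by limma), or 1.29-fold lower in RSG cells. With them it was -0.16 (SE 0.11, adjusted p = 1.00) at 12 h and -0.32 (SE 0.11, adjusted p = 0.572) at 8 h, so both calls rest on the 54 arrays. At 0.5, 1.5 and 3 h the differences of 0.04, 0.05 and -0.04 did not pass the test. In the 54 arrays the RSG effect on IDS differed between the times (moderated F over the interaction, adjusted p = 0.00942), which was so for 0.326% of all probes and, with 59 arrays, for 0%.

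The other IDS probes, annotated to a different transcript of the gene, did not pass the test. The second probe had a log2 difference of -0.27 at 12 h (95% interval -0.51 to -0.04, adjusted p = 0.329) and -0.13 at 8 h in the 54 arrays. The dimmest had -0.42 at 12 h (95% interval -0.87 to 0.03, adjusted p = 0.529) and -0.13 at 8 h. Both lay on the same side of 0 as the brightest probe at these times, and the interval of the dimmest includes 0. IDSP1, a pseudogene of IDS, lies near IDS on the X chromosome, and whether its transcript binds any of the probes was not tested.

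**Figure D2:**
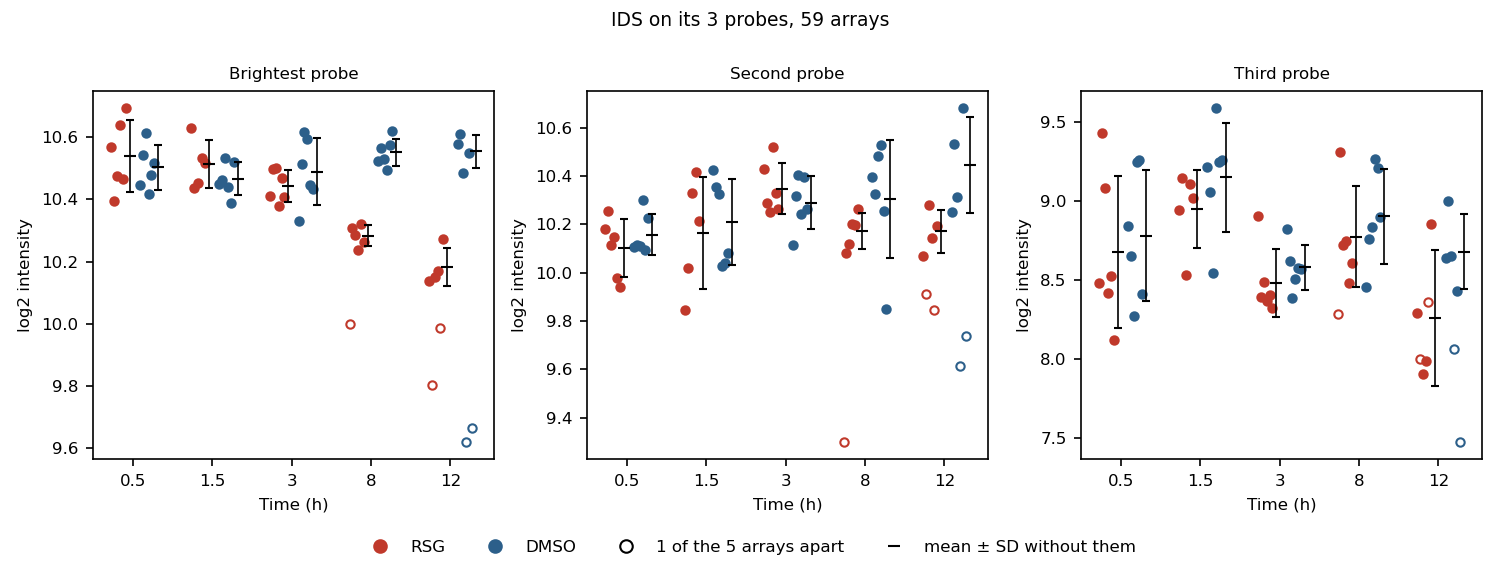
Log2 intensity of the 3 IDS probes (panels) on each array against time in hours, RSG points left of DMSO points at each time. Hollow points are the 5 arrays apart, and bars are the mean ± SD without them. In the panel of the brightest probe the filled RSG points at 8 h (10.24 to 10.32) and 12 h (10.14 to 10.27) lie below all filled DMSO points of the same time.

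The other lysosomal genes did not pass the test between RSG and DMSO cells, and the intervals set a limit on the size of any difference. At 12 h in the 54 arrays the differences ran from -0.44 for TFEB, the transcription factor, to 0.38 for ARSA, which removes sulfate from sulfatide. The 95% intervals of all 45 genes lay between -1 and 1 at every time in the 54 arrays. They lay between -0.5 and 0.5 for 42, 39, 35, 35 and 23 genes at 0.5, 1.5, 3, 8 and 12 h. The median over the 45 genes was 0.04, 0.02, -0.00, -0.09 and -0.07 at these times, and over all genes 0.00, -0.00, 0.01, -0.01 and -0.02. An unadjusted p under 0.05 at 12 h was reached by 15 of 63 probes, and by 10.6% of all probes. Among the genes concerned, NEU1, a sialidase, had -0.31 (95% interval -0.52 to -0.10, adjusted p = 0.137), and CTSL, a cysteine protease, had 0.22 (95% interval 0.06 to 0.38, adjusted p = 0.21). CD68, a heavily glycosylated membrane protein of macrophage lysosomes, had -0.24 (adjusted p = 0.248), and NPC1, which exports cholesterol from the lysosome, had -0.33 (adjusted p = 0.372). Of 9 macrophage markers, CD163 was lower in RSG cells at 12 h (-0.52, adjusted p = 0.0435), and its part in the IDS difference was not tested.

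**Figure D3:**
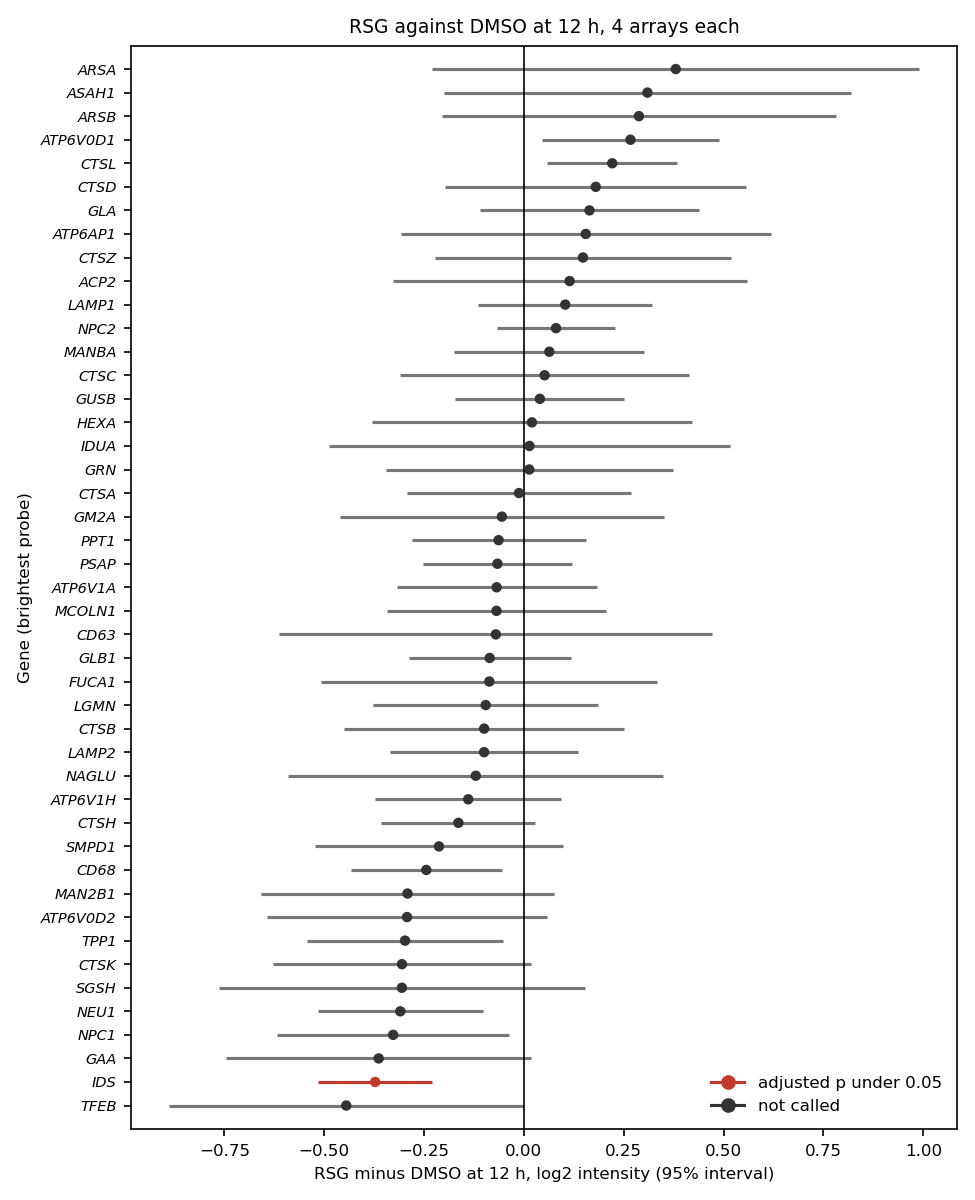
Log2 difference RSG minus DMSO at 12 h for the 45 lysosomal genes (points) with 95% intervals (bars), 4 arrays in each group. IDS (red) at -0.37 is the gene that passed the adjusted test, and the other points lie between -0.44 and 0.38.

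Time within a treatment went with more calls among the lysosomal genes than the ligand did. At 12 h against 0.5 h in the 54 arrays, 17 of 45 genes (37.8%) were called in RSG cells, 9 of them higher and 8 lower, and 14 (31.1%) in DMSO cells, 10 higher and 4 lower. Of the 63 probes 24 were called in RSG cells and 24 in DMSO cells, beside 35.9% of all probes in RSG cells and 36.4% in DMSO cells, so the lysosomal probes were called about as often as the rest. Leaving out each array in turn kept the call of 17 of the 24 probes in RSG cells and 16 of the 24 in DMSO cells. By direction, 18.6% of all probes were higher and 17.3% lower in RSG cells, and 19.5% higher and 16.9% lower in DMSO cells. With all 59 arrays the counts were 21 probes (14 genes) in RSG cells and 19 probes (12 genes) in DMSO cells, beside 30.7% of all probes in RSG cells and 31% in DMSO cells. The 2 comparisons share no arrays. In the 54 arrays 11 genes were called in both, 7 higher and 4 lower, each in the same direction, which is 64.7% of those called in RSG cells and 78.6% of those called in DMSO cells. A change over the 5 times was called for 32 probes in RSG cells (51.4% of all probes) and 35 in DMSO cells (57.9%) with 54 arrays, and for 23 in RSG cells (39.3%) and 27 in DMSO cells (47.2%) with 59. At 8 h against 0.5 h, 15 of 63 probes were called in RSG cells (32.2% of all probes) and 19 in DMSO cells (35.6% of all probes). At 3 h against 0.5 h, 2 were called in RSG cells (13.4% of all probes) and 3 in DMSO cells (20.2% of all probes). At 1.5 h against 0.5 h, 0 were called in RSG cells (0.743% of all probes) and 2 in DMSO cells (4.88% of all probes). The 2 probes were those of CTSD, an aspartic protease, at -0.52 (adjusted p = 0.0388), and GRN, the granulin precursor, at -0.47 (adjusted p = 0.0476). Leaving out any 1 of 9 of the 12 arrays ended either call, with -0.39 for CTSD and -0.36 for GRN as the values nearest 0, both without DMSO 1.5 h replicate 4. With 59 arrays the counts against 0.5 h were 9 in RSG cells and 12 in DMSO cells at 8 h, and 1 and 2 at 3 h. At 1.5 h they were 0 in both treatments, so the CTSD and GRN calls rest on the 54 arrays.

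Among the proteases, the cysteine cathepsins moved in opposite directions. CTSL, an endopeptidase, fell in both treatments. Its log2 intensity at 12 h was 13.96, 13.90, 14.09 and 14.04 in RSG cells, against a range of 14.33 to 14.72 with a median of 14.60 at 0.5 h. The DMSO arrays of 12 h gave 13.91, 13.79, 13.84 and 13.57, against 14.41 to 14.68 with a median of 14.57 at 0.5 h. The 12 h arrays lay below all 0.5 h arrays in both treatments. The change was -0.57 in RSG cells (SE 0.07, adjusted p = 5.82e-09 by limma) and -0.78 in DMSO cells (SE 0.07, adjusted p = 1.48e-12), and the other 2 probes fell by 0.97 and 0.65 in RSG cells and by 1.39 and 0.89 in DMSO cells. Over the times from 0.5 to 12 h the means of the brightest probe were 14.57, 14.59, 14.45, 14.07 and 14.00 in RSG cells and 14.55, 14.58, 14.38, 14.06 and 13.78 in DMSO cells.

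CTSC, the dipeptidase that activates granule proteases of myeloid cells, fell on its dimmer probes, while its brightest probe did not pass the test at 12 h. The second probe stood at 11.90, 12.29, 12.14 and 11.57 at 12 h in RSG cells, against 12.08 to 12.89 with a median of 12.61 at 0.5 h, which overlap. The DMSO arrays of 12 h stood at 11.53, 11.48, 11.84 and 11.72, below all 0.5 h arrays at 12.43 to 12.88. The changes were -0.60 in RSG cells (SE 0.13, adjusted p = 0.000127) and -1.04 in DMSO cells (SE 0.13, adjusted p = 2.58e-09), and the dimmest probe changed by -0.93 in RSG cells and by -1.24 in DMSO cells. The brightest probe had -0.10 in RSG cells and -0.39 in DMSO cells (adjusted p = 0.0613). With all 59 arrays its change in DMSO cells was -0.60 (adjusted p = 0.0149), and this call was lost without DMSO 12 h replicate 4 at -0.50.

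CTSH, an aminopeptidase of the same family, was lower at 12 h in the 54 arrays. It stood at 12.41, 12.49, 12.32 and 12.37 in RSG cells, against 12.91 to 13.08 at 0.5 h, and at 12.55, 12.65, 12.33 and 12.73 in DMSO cells, against 12.84 to 13.15 at 0.5 h. The groups did not overlap in either treatment. The change was -0.61 in RSG cells (SE 0.09, adjusted p = 8.96e-08) and -0.46 in DMSO cells (SE 0.09, adjusted p = 2.69e-05). CTSH was high on the arrays apart, and with all 59 arrays its changes of -0.20 in RSG cells and -0.10 in DMSO cells did not pass the test.

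CTSZ, a carboxypeptidase, rose instead. Its log2 intensity at 12 h was 11.81, 11.57, 11.50 and 11.20 in RSG cells, above the 0.5 h arrays at 10.27 to 10.92. In DMSO cells it was 11.23, 11.02, 11.60 and 11.63 at 12 h, above the 0.5 h arrays at 10.35 to 10.99. The change was 0.97 in RSG cells (SE 0.17, adjusted p = 4.96e-06) and 0.72 in DMSO cells (SE 0.17, adjusted p = 0.000556).

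LGMN, an asparaginyl endopeptidase that processes other cathepsins, rose on its brightest probe. At 12 h it stood at 6.70, 6.65, 6.17 and 6.46 in RSG cells, against 5.65 to 6.23 at 0.5 h, and at 6.76, 6.18, 6.66 and 6.76 in DMSO cells, against 5.63 to 6.10 at 0.5 h. The groups overlapped in RSG cells and not in DMSO cells. The change was 0.49 in RSG cells (adjusted p = 0.0019) and 0.70 in DMSO cells (adjusted p = 1.33e-05). With the arrays apart included it was 1.01 in RSG cells, a call lost at 0.68 without RSG 12 h replicate 2, and 1.49 in DMSO cells.

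Calls of the other proteases were weaker. CTSK had a change of -0.40 in RSG cells (adjusted p = 0.0277) and 0.03 in DMSO cells, and neither treatment was called with 59 arrays. The RSG call was lost without RSG 0.5 h replicate 1 or 6 or RSG 12 h replicate 4 or 6, at -0.40 to -0.29. CTSD had 0.42 in RSG cells (adjusted p = 0.0486), a call that leaving out 8 of the 10 arrays one at a time ended, with 0.30 as the lowest value (without RSG 12 h replicate 3) and 0.46 as the highest (without RSG 12 h replicate 1). CTSA, the protective protein of the sialidase, had changes of -0.08 in RSG cells and -0.04 in DMSO cells, and TPP1, a tripeptidyl peptidase, had -0.14 in RSG cells and 0.16 in DMSO cells. CTSB, an abundant cysteine cathepsin, had -0.25 in RSG cells, and -0.42 with all 59 arrays (adjusted p = 0.024), a call lost without RSG 0.5 h replicate 6 or RSG 12 h replicate 2 or 5, at -0.37 to -0.34. None of the CTSA, CTSB and TPP1 changes passed the test in the 54 arrays.

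**Figure D4:**
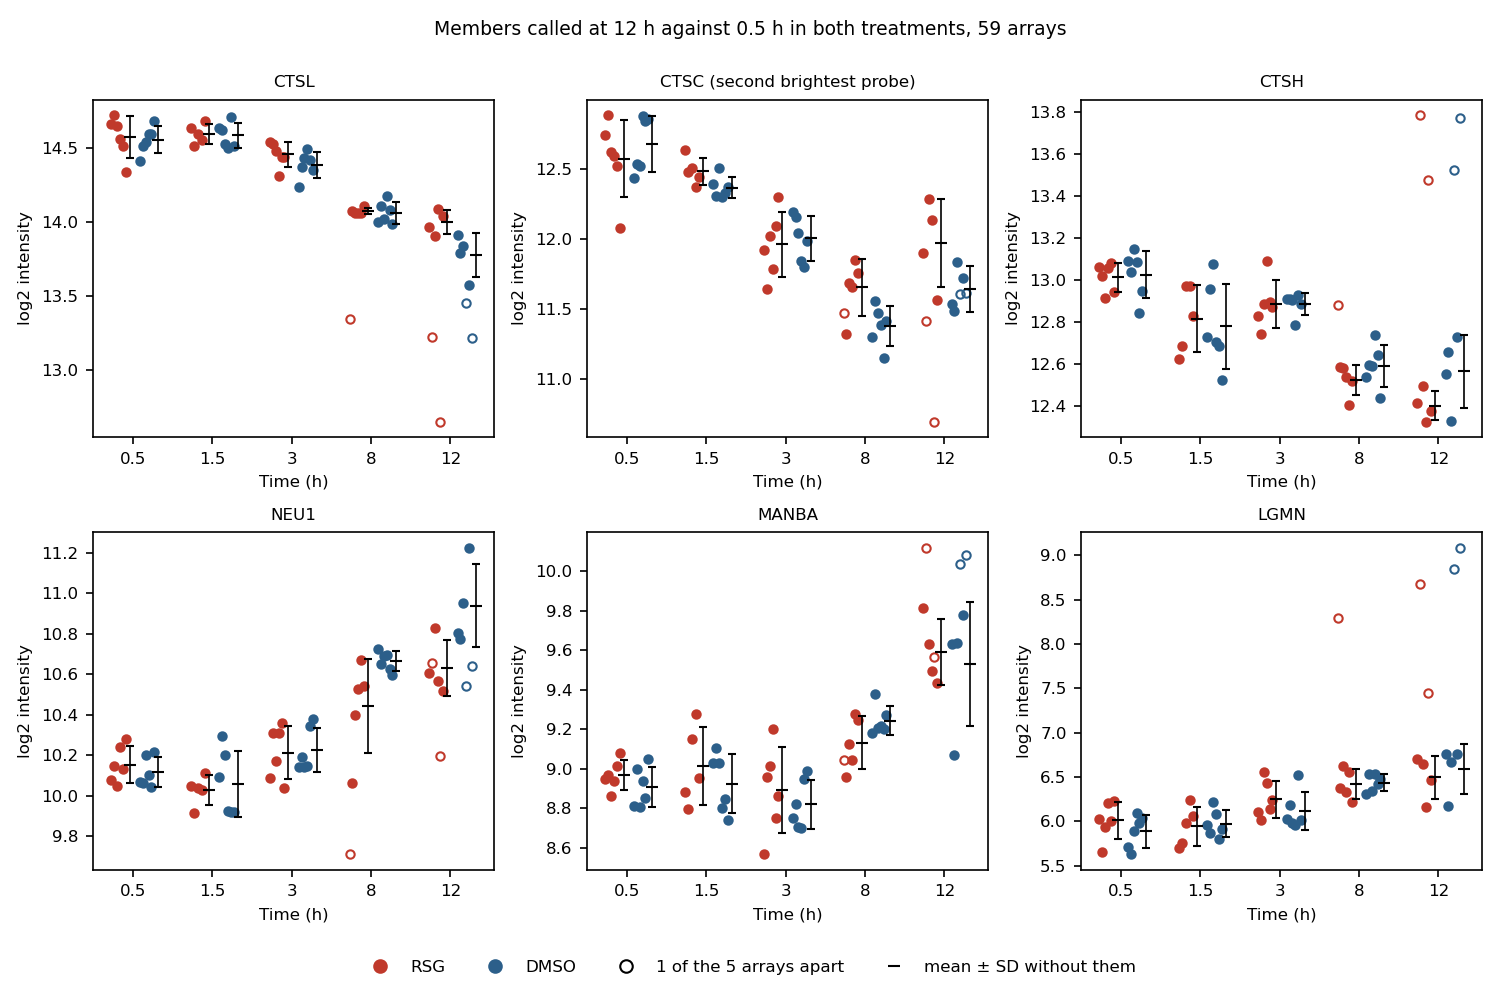
Log2 intensity on each array against time in hours for CTSL, the second brightest CTSC probe, CTSH, NEU1, MANBA and LGMN (panels), RSG points left of DMSO points. Hollow points are the 5 arrays apart, and bars are the mean ± SD without them. CTSL means fell to 14.00 in RSG cells and 13.78 in DMSO cells at 12 h, NEU1 means were 10.63 in RSG cells and 10.94 in DMSO cells at 12 h, and the hollow points of LGMN and CTSH lie above the filled ones of the same time.

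The glycosidases, which cut sugars from glycans, were called in 1 direction at 12 h in the 54 arrays. Of 11 genes, 4 were higher and 0 lower in RSG cells, with a median change of 0.26, and 6 were higher and 0 lower in DMSO cells, with a median of 0.41, where the median over all genes was -0.01 in RSG cells and 0.00 in DMSO cells. Of all probes 18.6% were higher and 17.3% lower in RSG cells, and 19.5% higher and 16.9% lower in DMSO cells. With 11 genes, whether the glycosidases differ from these shares was not tested. Of the 6 in DMSO cells, GAA and MAN2B1 lost their calls without DMSO 12 h replicate 5, at 0.34 and 0.10. NEU1, the sialidase, stood at 10.61, 10.83, 10.56 and 10.52 at 12 h in RSG cells, above the 0.5 h arrays at 10.05 to 10.28. In DMSO cells it stood at 10.80, 10.77, 10.95 and 11.23 at 12 h, above the 0.5 h arrays at 10.04 to 10.21. The change was 0.48 in RSG cells (SE 0.09, adjusted p = 4.16e-05) and 0.82 in DMSO cells (SE 0.09, adjusted p = 3.08e-10). The difference between the 2 changes, -0.35 (SE 0.13), did not pass the interaction test in the 54 arrays (adjusted p = 1.00).

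MANBA, which splits beta-linked mannose, rose in both treatments. It stood at 9.81, 9.63, 9.50 and 9.43 at 12 h in RSG cells, against 8.86 to 9.08 at 0.5 h, and at 9.63, 9.07, 9.64 and 9.78 in DMSO cells, against 8.81 to 9.05 at 0.5 h. Neither treatment showed an overlap of its 12 h and 0.5 h arrays. The change was 0.62 in RSG cells (SE 0.11, adjusted p = 4.64e-06) and 0.62 in DMSO cells (SE 0.11, adjusted p = 5.9e-06).

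GLA, the alpha-galactosidase that clears globotriaosylceramide, stood at 11.60, 11.40, 11.30 and 11.42 at 12 h in RSG cells, above the 0.5 h arrays at 10.65 to 11.05. The DMSO arrays of 12 h, at 11.43, 10.94, 11.16 and 11.52, overlapped the 0.5 h arrays at 10.54 to 11.00. It rose by 0.56 in RSG cells (adjusted p = 0.000251) and by 0.45 in DMSO cells (adjusted p = 0.00306). GLB1, the beta-galactosidase, rose by 0.26 in RSG cells (adjusted p = 0.0236) and by 0.39 in DMSO cells (adjusted p = 0.000609) in the 54 arrays, and was called in neither treatment with 59. The RSG call was lost without RSG 0.5 h replicate 3 at 0.22 or RSG 12 h replicate 4 at 0.23.

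GAA, which degrades glycogen, was high on 1 array. At 12 h it stood at 8.05, 8.50, 7.71 and 7.86 in RSG cells, against 7.50 to 8.18 at 0.5 h. In DMSO cells it stood at 8.04, 7.91, 8.22 and 9.40 at 12 h, against 7.49 to 7.89 at 0.5 h. The change in DMSO cells was 0.68 (adjusted p = 0.00145), and without replicate 5 of the 12 h group it was 0.34 (adjusted p = 0.0814). The other GAA probe had 0.75 in DMSO cells (adjusted p = 0.000283) and 0.46 without that array (adjusted p = 0.0181). The RSG change of 0.22 did not pass the test. MAN2B1, the alpha-mannosidase, had 0.03 in RSG cells. In DMSO cells it stood at 9.73, 9.85, 9.95 and 11.07 at 12 h, the last on replicate 5, and the change of 0.41 (adjusted p = 0.0463) was 0.10 without that array (adjusted p = 0.647). The call was also lost without DMSO 0.5 h replicate 1, 4, 5 or 6, at 0.38 to 0.42. The remaining 5 glycosidases passed the test in neither treatment at 12 h. They act on fucose (FUCA1), glucuronic acid (GUSB), the ganglioside GM2 (HEXA), iduronic acid (IDUA) and heparan sulfate (NAGLU), and their changes ran from -0.48 to 0.49 in RSG cells and from -0.24 to 0.49 in DMSO cells.

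Of the 4 sulfatases, IDS was the one called at 12 h against 0.5 h in the 54 arrays. SGSH was called at 8 h in RSG cells. In RSG cells the brightest IDS probe fell by 0.36 at 12 h against 0.5 h (adjusted p = 1.13e-05). At 8 h it fell by 0.26 (adjusted p = 0.00073), and with 59 arrays by 0.45 at 12 h (adjusted p = 0.00064). In DMSO cells its change was 0.05 at 12 h and 0.05 at 8 h and did not pass the test. The second IDS probe had a called change of 0.29 in DMSO cells at 12 h (adjusted p = 0.027), which lost its call without DMSO 12 h replicate 2 at 0.26 or replicate 5 at 0.21. SGSH, the heparan N-sulfatase, had -0.41 in RSG cells at 12 h in the 54 arrays (adjusted p = 0.129) and -0.66 with 59 (adjusted p = 0.0217), a call lost without RSG 12 h replicate 5 at -0.45, without RSG 0.5 h replicate 4 at -0.60 or without RSG 0.5 h replicate 6 at -0.49. ARSA and ARSB, which act on sulfatide and dermatan sulfate, had -0.33 and 0.03 in RSG cells and -0.61 and -0.28 in DMSO cells, none of which passed the test.

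Of the 6 lipid hydrolases and their activators, 2 were lower in RSG cells and 1 in DMSO cells. SMPD1, acid sphingomyelinase, stood at 7.43, 7.26, 7.72 and 7.80 at 12 h in RSG cells, below all 0.5 h arrays at 8.16 to 8.41. In DMSO cells it stood at 7.88, 7.82, 7.54 and 7.83 at 12 h, which overlapped the 0.5 h arrays at 7.87 to 8.26. It fell by 0.71 in RSG cells (adjusted p = 4.96e-05) and by 0.37 in DMSO cells (adjusted p = 0.0338). The DMSO call was lost with the replicate block (-0.37, adjusted p = 0.0502) and without DMSO 0.5 h replicate 3, 4 or 6 at -0.35 or DMSO 12 h replicate 3 at -0.30. These values are from the brightest SMPD1 probe. The dimmer SMPD1 probe did not pass the moderated F test for a change over time in the 54 arrays. Its adjusted p was 0.529 in RSG cells and 0.533 in DMSO cells. PSAP, whose cleavage yields the saposins that present sphingolipids to their enzymes, fell by 0.31 in RSG cells (adjusted p = 0.0027) and had -0.16 in DMSO cells. PPT1, a thioesterase that removes palmitate, and NPC2 had changes between 0.02 and 0.10 in both treatments at 12 h that did not pass the test. ASAH1, acid ceramidase, had -0.06 in RSG cells and -0.29 in DMSO cells, and GM2A, the activator that lifts GM2 from the membrane, had 0.10 in RSG cells and 0.05 in DMSO cells, also without passing it.

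Among the membrane proteins, CD63, a tetraspanin of late endosomes, had the largest change. It stood at 9.16, 9.69, 8.86 and 9.22 at 12 h in RSG cells, with the highest of them just under the lowest 0.5 h array in a range of 9.69 to 10.70. Its DMSO values were 8.92, 9.33, 9.42 and 9.54 at 12 h, with 9.53 to 10.95 at 0.5 h. It fell by 0.91 in RSG cells (adjusted p = 0.00242) and by 0.85 in DMSO cells (adjusted p = 0.00478). With all 59 arrays the DMSO change was -0.69, a call lost without DMSO 0.5 h replicate 2 at -0.53 or without DMSO 12 h replicate 1 at -0.58.

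NPC1 stood at 9.03, 9.19, 9.07 and 8.81 at 12 h in RSG cells, a change of 0.25 that did not pass the test, and at 9.27, 9.32, 9.23 and 9.59 in DMSO cells, above the 0.5 h arrays at 8.71 to 8.98. The DMSO change was 0.52 in the 54 arrays (adjusted p = 0.00121) and 0.35 in 59 (adjusted p = 0.0933). The difference between treatments, -0.27 (SE 0.19), did not pass the interaction test. The CD68 probes disagreed. The brightest fell by 0.29 in RSG cells (adjusted p = 0.00556) and had -0.01 in DMSO cells, while the other had -0.70 in DMSO cells (adjusted p = 0.00896) and -0.37 in RSG cells. On that probe the DMSO arrays of 12 h stood at 8.77, 8.83, 9.08 and 7.19, the last on replicate 5, without which the change was -0.27 (adjusted p = 0.289). LAMP1 and LAMP2, the main glycoproteins of the lysosomal membrane, had changes of 0.18 and 0.12 in RSG cells and 0.03 and 0.19 in DMSO cells, and MCOLN1, a calcium channel, had 0.08 in RSG cells and 0.24 in DMSO cells, none of which passed the test.

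Of the 5 proton pump subunits, 2 were higher in RSG cells and 1 in DMSO cells. ATP6V1A, the catalytic subunit, rose by 0.32 in RSG cells (adjusted p = 0.0226) and by 0.30 in DMSO cells (adjusted p = 0.0307) at 12 h. The RSG call was lost without RSG 0.5 h replicate 6 or RSG 12 h replicate 4 or 6, at 0.25 to 0.31, and the DMSO call without DMSO 0.5 h replicate 2 or DMSO 12 h replicate 1, 2 or 3, at 0.25 to 0.30. ATP6V0D1, a subunit of the stalk, rose by 0.33 in RSG cells in the 54 arrays (adjusted p = 0.00855), with 0.27 (adjusted p = 0.0521) without RSG 12 h replicate 3 and 0.06 in 59 arrays, and had 0.13 in DMSO cells. ATP6V0D2, its counterpart known from osteoclasts and some macrophages, had -0.27 in RSG cells (adjusted p = 0.194), and -0.57 with 59 arrays (adjusted p = 0.0135), a call lost without RSG 12 h replicate 2 at -0.45 or replicate 5 at -0.44. TFEB stood at 6.24, 6.93, 6.97 and 6.84 at 12 h in RSG cells, against 6.78 to 7.41 at 0.5 h, and at 6.89, 7.24, 7.19 and 7.44 in DMSO cells, against 6.82 to 7.45 at 0.5 h. These ranges overlap, and TFEB passed the test in neither treatment.

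The remaining members did not pass the test at 12 h against 0.5 h. ATP6V1H, a regulatory pump subunit, had -0.21 in RSG cells and -0.06 in DMSO cells, ATP6AP1 had -0.37 in RSG cells and -0.46 in DMSO cells, ACP2 had -0.18 in RSG cells and -0.28 in DMSO cells, and GRN had 0.27 in RSG cells and 0.26 in DMSO cells. Some members were called at 8 h against 0.5 h and not at 12 h. In RSG cells these were ASAH1 at -0.56 (adjusted p = 0.0433), ATP6V1H at -0.27 (adjusted p = 0.034) and SGSH at -0.56 (adjusted p = 0.0219). In DMSO cells they were FUCA1 at 0.55 (adjusted p = 0.0089), GM2A at 0.45 (adjusted p = 0.0272), NPC2 at 0.16 (adjusted p = 0.0293) and the brightest CTSC probe at -0.56 (adjusted p = 0.00211). Leaving out 1 array ended the calls of ASAH1 (lowest size -0.45, without RSG 8 h replicate 4), ATP6V1H (-0.22, without RSG 8 h replicate 5), SGSH (-0.39, without RSG 0.5 h replicate 6), GM2A (0.39, without DMSO 0.5 h replicate 4 or DMSO 8 h replicate 4) and NPC2 (0.14, without DMSO 8 h replicate 3).

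Beside these time courses, all 4 kept granulocyte and promyelocyte markers of 8 listed were lower at 12 h in RSG cells and 2 of the 4 in DMSO cells, and 3 of 9 macrophage markers were lower and 1 higher in each treatment. In the 54 arrays 18.6% of all probes were higher and 17.3% lower at 12 h in RSG cells, and 19.5% and 16.9% in DMSO cells. The part of these markers in the lysosomal values was not tested, and in bulk RNA fewer cells of a kind and less RNA per cell cannot be told apart.

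Other genes of the lysosome and of autophagy were taken from lists outside the 46. Between RSG and DMSO cells at 12 h in the 54 arrays, 0 of 27 other hydrolases, 0 of 17 other pump subunits and 0 of 28 MiT factors, sorting and nutrient signalling genes were called. Of all probes 1.53% were called. Of 28 other membrane proteins, SCARB2, the receptor that carries glucocerebrosidase to the lysosome, was higher in RSG cells. It averaged 12.66 in RSG cells and 12.28 in DMSO cells at 12 h (difference 0.39, adjusted p = 0.00520), with 0.35 at 8 h (adjusted p = 0.00274). Of 26 autophagy genes, 2 were lower in RSG cells. GABARAPL1, which is coupled to lipid on autophagosomes, averaged 8.78 in RSG cells and 9.10 in DMSO cells at 12 h (-0.32, adjusted p = 0.0480), with -0.39 at 8 h (adjusted p = 0.00147). WIPI1, which binds the forming autophagosome, averaged 7.18 in RSG cells and 7.55 in DMSO cells at 12 h (-0.38, adjusted p = 0.0486).

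Over time, these lists moved in both directions. At 12 h against 0.5 h in the 54 arrays, 5 of the 27 hydrolases were higher and 3 lower in RSG cells, and 5 higher and 2 lower in DMSO cells. Of all probes 18.6% were higher and 17.3% lower in RSG cells, and 19.5% higher and 16.9% lower in DMSO cells, which is the share to set beside each list. NAAA, which hydrolyses fatty acid ethanolamides, rose by 0.74 in RSG cells and 0.75 in DMSO cells, and PRCP, a carboxypeptidase, fell by 0.84 in RSG cells and by 0.66 in DMSO cells. Of the 28 membrane proteins, 4 were higher and 8 lower in RSG cells and 5 higher and 6 lower in DMSO cells, with MCOLN3, a relative of MCOLN1, at 1.10 in RSG cells and 1.09 in DMSO cells. Of 26 autophagy genes, 1 was higher and 8 lower in RSG cells and 1 higher and 7 lower in DMSO cells. SQSTM1, a cargo receptor of autophagy, fell by 0.57 in RSG cells and by 0.83 in DMSO cells. MITF and TFE3, relatives of TFEB, had changes of 0.75 and -0.60 in RSG cells (adjusted p = 5.49e-06 and 0.000953).

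On the 5 arrays apart some lysosomal genes lay outside the range of the other late arrays, which is described without a test because the arrays were picked out from the data. Against the other 19 arrays of 8 and 12 h, 3 of 45 genes lay above all of them on all 5 arrays (6.67% of the genes, where 9.96% of all probes did) and 11 lay below (24.4%, where 13.4% of all probes did). These shares set the brightest probe of each gene beside all probes, so they are not in like units. Of 27 other hydrolases, 9 lay below and 1 above. The median difference over the 45 genes was -0.14, and over all genes -0.02. LGMN stood at 7.45 to 9.09 on the 5 arrays and 6.17 to 6.76 on the 19, TFEB at 8.13 to 9.28 against 6.24 to 7.44, and CTSH at 12.88 to 13.79 against 12.32 to 12.74. The gap was widest among the lower genes for FUCA1, the fucosidase, at 7.95 to 8.46 on the 5 arrays and 9.60 to 10.76 on the 19. CTSL, ATP6V0D2, TPP1, GUSB, MCOLN1, LAMP1, IDS, GLB1, PPT1 and NPC2 were the other 10, with CTSL at 12.65 to 13.45 against 13.57 to 14.17. All 20 kept genes of the inflammatory and dendritic maturation list lay above on these arrays and 6 of 9 macrophage markers below, and their part in the lysosomal values was not tested.

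**Figure D5:**
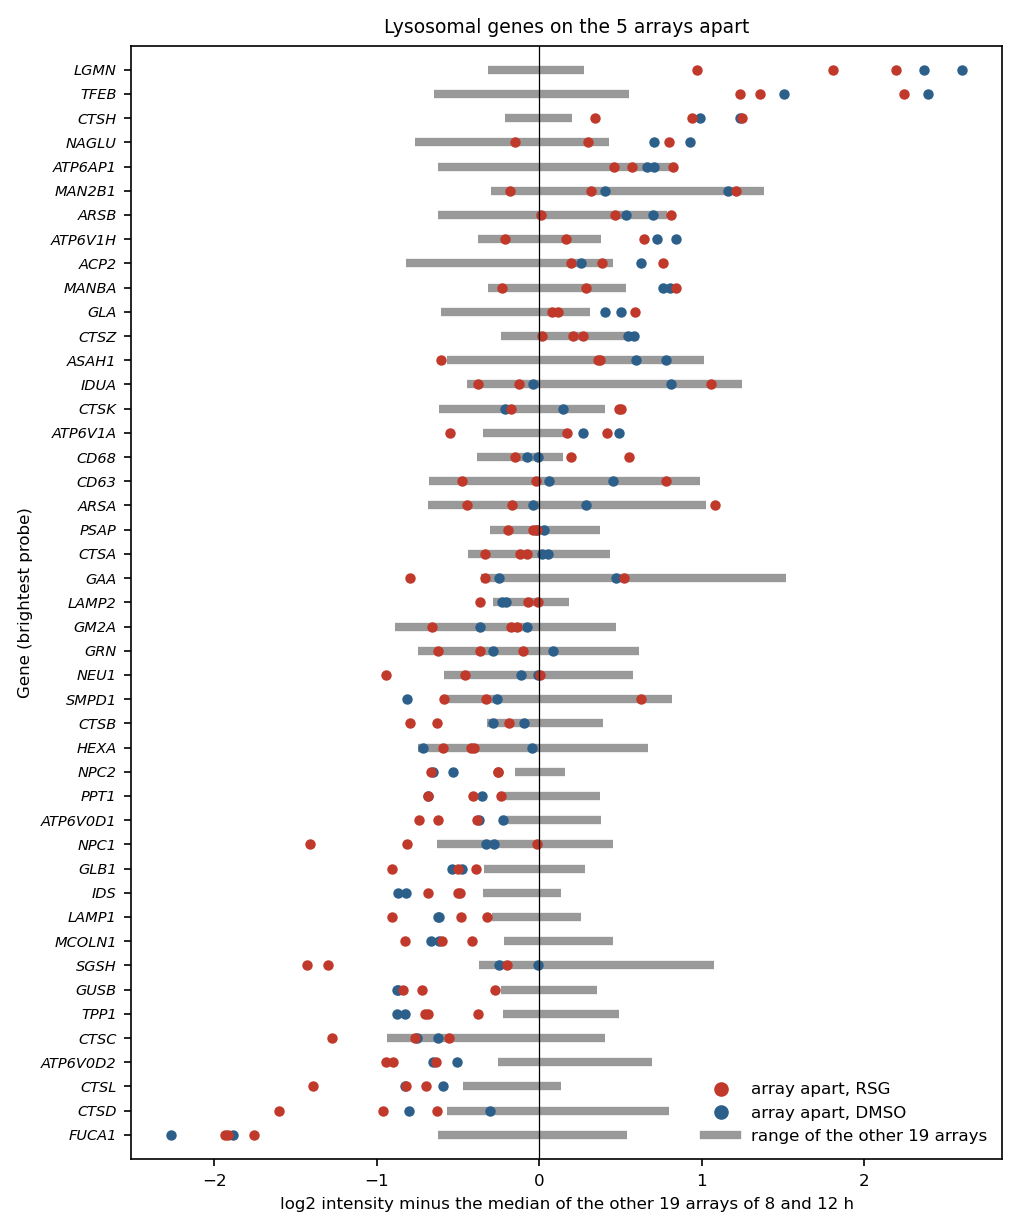
Log2 intensity of lysosomal genes on the 5 arrays apart (points) and the range on the other 19 arrays of 8 and 12 h (bars). LGMN, TFEB and CTSH lie above the range on all 5 arrays, and FUCA1 lies below it by more than 1 log2 unit.

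Arrays within a group also split, largely by replicate number, and the labels do not say what the sides are. The first principal component of the residuals of the 54-array fit held 24.8% of the residual variance and put 24 arrays on 1 side and 30 on the other. Both treatments and all times were on both sides. For 8 of 45 lysosomal genes over 50% of the residual variance lay between the sides, and the median share was 14% for the 45 genes and 9.5% for all named genes. ATP6AP1, an accessory subunit of the pump, had the highest share at 80.2%, with a difference of 0.57, and ARSA, ARSB, ASAH1, CD63, FUCA1 and ACP2 differed by 0.44 to 0.66. ACP2, an acid phosphatase, shows it at 0.5 h. It stood at 8.39, 8.24 and 8.50 in RSG replicates 1 to 3 and 9.02, 8.96 and 9.06 in RSG replicates 4 to 6, and at 9.19, 9.21 and 9.19 in DMSO replicates 1 to 3 and 8.32, 7.81 and 8.33 in DMSO replicates 4 to 6. At 0.5 h the arrays of the treatments with the same number thus lay on opposite sides. In DMSO cells replicates 1 to 3 lay opposite replicates 4 to 6 at 0.5, 1.5, 3 and 8 h, changing sides from each time to the next. In RSG cells low and high numbers also lay apart, as replicates 1 and 2 against 3 to 5 at 1.5 h. At 3 h RSG replicate 5 lay with replicates 1 to 3. Within the sides, the IDS difference between RSG and DMSO cells was -0.27 (2 RSG and 3 DMSO arrays) and -0.26 (3 and 3) at 8 h, and -0.40 (2 and 1) and -0.34 (2 and 3) at 12 h. With the side as a block it was -0.27 at 8 h (adjusted p = 0.00743 by limma) and -0.38 at 12 h (adjusted p = 0.000633). Only 0.597% of the residual variance of this IDS probe lay between the sides, which were drawn from the residuals of the same fit. Neither the split nor the block could therefore test the IDS difference.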

How the data were processed

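Arrays of PMA-differentiated THP-1 cells were put in 10 groups by the treatment and hour in their labels. Per the file headers, the deposited signal table holds bead intensity per probe, which the authors neither background-corrected nor scaled, with a detection p-value deposited for each value. A second table holds the intensity that the authors had background-subtracted and scaled to a common mean in BeadStudio, and it served as an alternative. Of 24531 probes, 24526 were in both tables, and the remaining 5 were not used. This raw intensity was background-corrected, quantile-normalized and log2-transformed with neqc (offset 16) in limma 3.58.1 under R 4.3.3. A probe was kept when its detection p was under 0.01 on 5 or more arrays, leaving 15336, of which 1459 had no symbol.

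A group-means model was fitted in limma, and contrasts had two-sided moderated p-values that were Benjamini-Hochberg adjusted over all kept probes in each comparison and a threshold of 0.05. Changes over the 5 times and the difference of the RSG effect between times were tested by the moderated F. Each fit was run with 59 arrays and with the 54 that had a median correlation of at least 0.95 with the others. Intervals are 95% intervals of the fit. The number of arrays limits the precision. The test was tried on simulated data with known changes. Promoter windows came from RefSeq.

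The members and gene lists were chosen with earlier results of these data known. Any lysosomal gene could be named, values per array are given for members called in a comparison, and other lists gave up to 4 called genes. Replicate numbers were not used to pair the samples. Alternatives were the second table, average normalization, raw signal without background correction, all probes, only probes detected on every array, 1 probe or the mean of the probes per gene, array weights, the replicate number as a block, a robust and trended prior, the 2 groups compared alone, an unmoderated linear model and leaving out each array. A block for array background over 75, a block for the residual side and a fit without 4 arrays whose PDK4 went against the label were added after the data had been seen.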

Additional observations from a re-analysis of the deposited data

Results flagged for a closer look

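Of 160 groups of 16 named lysosomal genes, 12 held 1 array far from the rest of its group. Chance gives about 1 in 20, though genes on the same array are not independent. The rule finds a lone extreme array, and the 12 h groups each held more than 1 array apart, which can hide each other. Of the 12 flagged, 7 were on RSG 8 h replicate 1, the only array apart in its group. On it CTSC stood at 10.95 (others 12.04 to 12.63), CTSD at 10.31 (11.45 to 12.11), CTSL at 13.34 (14.06 to 14.10) and IDS at 10.00 (10.24 to 10.32). On the same array LGMN stood at 8.29 (6.21 to 6.62), NPC1 at 7.73 (8.71 to 9.16) and SGSH at 9.34 (10.51 to 10.76). RSG 0.5 h replicate 6, whose PDK4 level went against its label, was low for CTSC at 11.37 (12.37 to 12.70) and NPC1 at 8.15 (8.73 to 9.06). CTSC was also low on RSG 1.5 h replicate 1 at 12.12 (12.66 to 12.73), CTSH was low on DMSO 3 h replicate 4 at 12.78 (12.89 to 12.93), and SGSH was high on DMSO 12 h replicate 5 at 11.84 (10.52 to 10.95).

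The effect of RSG on IDS differed between the times in the 54 arrays, by limma's moderated F over the interaction (adjusted p = 0.00942). No other lysosomal probe passed that test in the 54 arrays, and with 59 arrays 0 did.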

How the results depend on the processing

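Direction was followed for the brightest probes of the called lysosomal genes with the largest differences in each comparison. None of these values reversed its direction under any alternative run. The direction of the other lysosomal values was not followed. With 59 arrays, RSG against DMSO had 0 lysosomal probes called at 8 h, 12 h, over all times and for the difference between times, and each count became 1 with the 54 arrays and 1 with array weights. The count for the change over the 5 times in RSG cells was 23, and 36 with array weights. With 54 arrays the count of 1 became 0 at 8 h, over all times and for the difference between times under average normalization, 0 at 8 h and 12 h when only the 2 groups compared were fitted, 0 genes at 8 h and for the difference between times with the mean of the probes of a gene, and 2 over all times with array weights. IDS at 12 h kept its call in 14 of 15 alternatives and ran from -0.38 to -0.33, and at 8 h in 12 of 15, from -0.27 to -0.18. Leaving out 1 array gave 18 to 23 (59 arrays) and 20 to 26 (54 arrays) probes at 12 h against 0.5 h in RSG cells, 17 to 23 and 20 to 25 in DMSO cells, 19 to 27 and 25 to 33 for the change over the 5 times in RSG cells, and 23 to 30 and 29 to 38 in DMSO cells. For RSG against DMSO it left every count as it was, 0 to 0 with 59 arrays and 1 to 1 with 54 at 8 h, 12 h, over all times and for the difference between times. With the replicate number as a block the counts at 12 h against 0.5 h were 21 in RSG cells and 19 in DMSO cells (59 arrays), and 22 in RSG cells and 21 in DMSO cells (54 arrays), and IDS stayed called at -0.27 (8 h, adjusted p = 0.0178) and -0.38 (12 h, adjusted p = 0.00282). With 54 arrays it ended the calls at 12 h of CTSD and CTSK in RSG cells and of MAN2B1, SMPD1 and the dimmer CTSH probe in DMSO cells, at 8 h of ASAH1, the dimmer CD68 probe and the dimmest CTSC probe in RSG cells, and at 1.5 h of GRN in DMSO cells, and with 59 arrays 0 calls at 12 h. The block gives each number 1 effect over all groups. The sides of the residual split held different numbers at different times, so this block could not account for that split. The numbers were not used to pair the samples. With 59 arrays, same-numbered RSG and DMSO arrays had a mean residual correlation of -0.36, -0.25, -0.20, -0.30 and -0.29 from 0.5 to 12 h. With 54 arrays the correlation was -0.43 at 8 h and -0.003 at 12 h, where 2 numbers were left in both treatments. Of 623 values of the members followed through every alternative, 601 kept direction and call and 22 lost the call. These members were taken for their large called differences, so the count does not stand for all called probes. Over all probes called at 12 h against 0.5 h with 54 arrays, leaving out 1 array ended the call of 7 of 24 in RSG cells and 8 of 24 in DMSO cells. The blocks for background and residual side and the fit without 4 arrays, chosen after seeing the data, moved no count by over 1.5 times. The cause of these losses was not tested.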
